A study of Homo sapiens with 15 samples.

Results

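The miRNAs of U87-MG cells that had lost HIF2α and were cultured in low oxygen were compared with those of control cells kept in normal oxygen. U87-MG is an established human glioblastoma cell line. The comparison used 6 of the 15 miRNA-Seq libraries, chosen by the genotype and oxygen condition in their labels: 3 replicates of HIF2α-KO cells cultured in 1% O2 for 24 h and 3 replicates of control cells without HIF1α or HIF2α interference cultured in 21% O2 for 24 h. The 9 other libraries were control cells in 1% O2, HIF1α-KO cells in 1% O2 and HIF1α/HIF2α-KO cells in 1% O2, with 3 replicates each. The knockouts were made with the CRISPR/Cas9 system, delivered by lentivirus, and it is not stated whether the knockout cells were single clones. Both oxygen and genotype differed between the 2 groups, so a difference between them cannot be assigned to one or the other. Each library gave counts for 1707 mature miRNAs, of which 562 had enough counts to be tested.

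Cells sense low oxygen through hypoxia-inducible factors, each made of an oxygen-sensitive α subunit and the stable partner ARNT. In normal oxygen, HIF1α and HIF2α are hydroxylated, bound by the VHL ubiquitin ligase and degraded. In low oxygen they accumulate and switch on genes of glycolysis, angiogenesis and survival, together with a small group of miRNAs of which miR-210 is the best known. A miRNA pairs with target mRNAs mainly through its seed, bases 2 to 8 from the 5′ end, so miRNAs with the same seed share many targets. HIF2α-KO cells in 1% O2 retain HIF1α, so that the comparison asks how far the miRNA profile of cells with this factor alone stood from that of unstressed cells.

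The mature sequences on which the results turn are given first, from RefSeq (GRCh38.p14), 5′ to 3′, with the seed in capitals. Of the 562 miRNAs tested, 513 (91.3%) had a RefSeq mature sequence. Both arms of the miR-210 hairpin are shown because miR-210 is the marker of the hypoxic response, and the hairpin (chr11:568089-568198, minus strand) lies in an intron of the long non-coding RNA gene MIR210HG.
miR-210-3p: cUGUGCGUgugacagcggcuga
miR-210-5p: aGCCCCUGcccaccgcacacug
The members of the miR-17 family share the seed AAAGUGC and held the smallest p among the higher miRNAs. The MIR17 and MIR20A hairpins overlap an exon of MIR17HG on chromosome 13, MIR106B lies in an intron of MCM7 on chromosome 7, and MIR106A and MIR20B lie on chromosome X.
miR-17-5p: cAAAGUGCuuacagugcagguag
miR-20a-5p: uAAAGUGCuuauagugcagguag
miR-20b-5p: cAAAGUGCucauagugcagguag
miR-106a-5p: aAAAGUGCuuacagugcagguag
miR-106b-5p: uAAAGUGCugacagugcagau
miR-93-5p: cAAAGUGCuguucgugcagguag
A pair of miR-15/16 family members is shown for the seed AGCAGCA.
miR-16-5p: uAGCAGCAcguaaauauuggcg
miR-424-5p: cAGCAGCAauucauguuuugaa
The following miRNAs also had the smallest p in either direction. The miR-3180 sequence is contained in that of miR-3180-3p.
miR-3180-3p: uGGGGCGGagcuuccggaggcc
miR-3180: uGGGGCGGagcuuccggag
miR-12136: gAAAAAGUcauggaggcc
miR-188-5p: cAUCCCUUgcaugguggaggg
miR-671-3p: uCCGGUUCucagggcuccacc
miR-3173-5p: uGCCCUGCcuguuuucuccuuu
miR-629-3p: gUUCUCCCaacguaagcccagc
miR-615-3p: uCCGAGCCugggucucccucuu
miR-191-3p: gCUGCGCUuggauuucgucccc

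No miRNA passed the test between hypoxic HIF2α-KO and normoxic control cells. Levels are given as CPM, counts per 1000000 counts of a library after TMM normalization, and are not corrected for length, since mature miRNAs are of nearly equal length. With edgeR's quasi-likelihood test and Benjamini-Hochberg adjustment, 0 of 562 miRNAs were higher (0%) and 0 were lower (0%) at an adjusted p under 0.05, and the smallest adjusted p was 0.214. At an unadjusted p under 0.05, 47 miRNAs were higher in HIF2α-KO cells (8.36% of those tested) and 38 were lower (6.76%), together 85 (15.1%). With total counts in place of TMM factors, this split was 26 higher and 57 lower. limma and DESeq2 also gave 0 adjusted calls, with 72 and 69 miRNAs at an unadjusted p under 0.05. Most differences were small. The median log2 fold change was -0.00, with 80% of miRNAs between -0.54 and 0.65, and 31 of the 562 (5.52%) differed by 2-fold or more. Without HIF2α-KO replicate 1, 9 miRNAs were higher and 9 were lower at an adjusted p under 0.05 in edgeR. With all libraries and no filter on low counts, 12 were higher and 1 was lower. Of these, only miR-6766-3p had failed the main filter, so the others were tested in both fits. Only the filter differed between the fits, and how it led to calls for these other miRNAs was not tested. Some had uneven HIF2α-KO counts, such as miR-374a-3p with 13 to 917, and others did not, such as miR-20a-5p with 3621 to 5772.

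**Figure D1:**
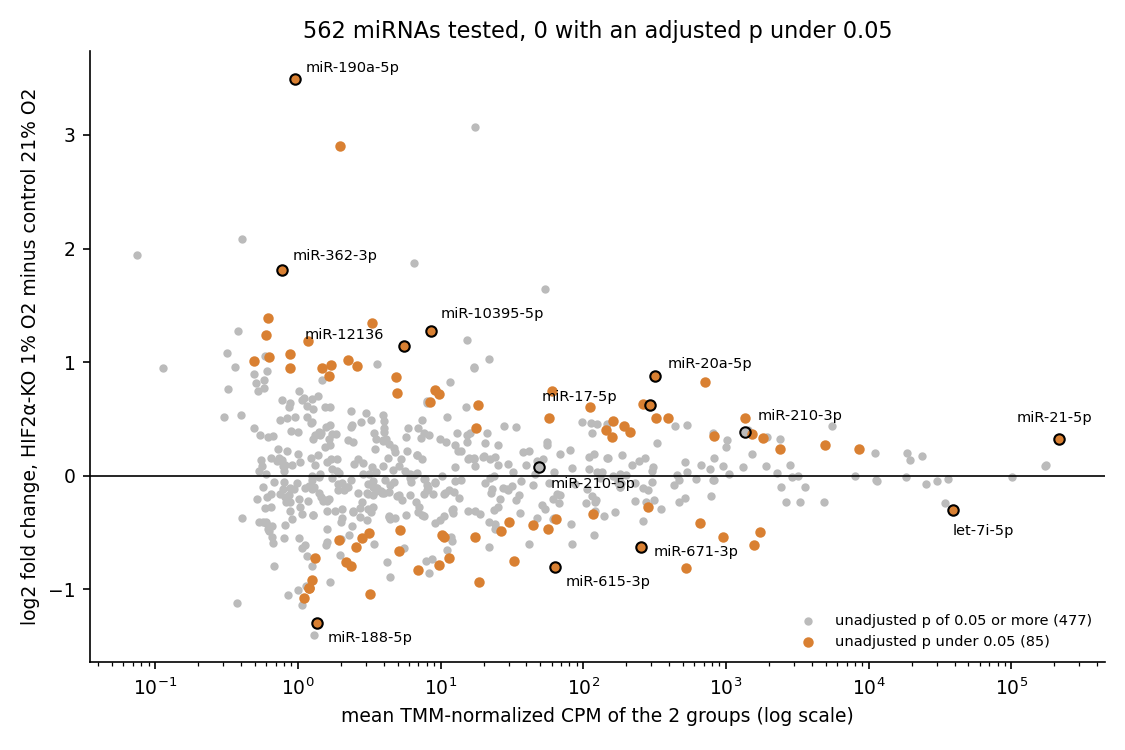
The log2 fold change of each of the 562 miRNAs (y axis, hypoxic HIF2α-KO minus normoxic control cells) is plotted against its mean TMM-normalized CPM in the 2 groups (x axis, log scale). The 85 miRNAs with an unadjusted p under 0.05 (orange) lie on both sides of 0, the orange points with the largest fold changes lie near 1 CPM, and both arms of miR-210 lie among the grey points (black rings mark the miRNAs named in the plot).

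The 6 libraries held 11534878 to 16258777 counts. A detection floor of 3 counts lay at 0.260 CPM or less before TMM normalization, which allows for counting error alone. The HIF2α-KO replicates differed more among themselves than the normoxic replicates. The median absolute log2 difference between 2 libraries was 0.389 to 0.433 among HIF2α-KO replicates and 0.238 to 0.268 among normoxic replicates. Among the 47 higher miRNAs with an unadjusted p under 0.05, HIF2α-KO replicate 2 was farthest from the normoxic libraries for 30, and replicate 1 was nearest to them for 35. Among the 38 lower ones, replicate 1 was nearest to the normoxic libraries for 27. Among these 6 libraries HIF2α-KO replicate 2 also stood apart in miR-126, a marker of endothelial cells. The 2 arms summed to 35.7, 4.28 and 23.6 CPM in HIF2α-KO replicates 1 to 3 and 18.0, 28.5 and 38.7 CPM in the normoxic replicates. Elsewhere in the series sums were as low, with 4.28 and 5.02 CPM in control hypoxia replicates 2 and 3. HIF1α-KO replicates 1 and 2 had 6.44 and 4.01 CPM, and HIF1α/HIF2α-KO replicate 3 had 6.64 CPM. Without HIF2α-KO replicate 2, 0 miRNAs passed and 51 had an unadjusted p under 0.05 in edgeR. Nothing states that the replicates came from separate cultures, so p-values measure only the spread between these libraries, which may be technical. HIF1A and EPAS1 (HIF2α) mRNAs are outside a miRNA assay, and loss of HIF2α was therefore not checked here.

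miR-210-3p, the miRNA most often linked to HIF and low oxygen, did not differ between hypoxic HIF2α-KO cells and normoxic control cells beyond the spread of the libraries. It measured 1443, 1996 and 1210 CPM in HIF2α-KO replicates 1 to 3 and 1018, 1308 and 1237 CPM in the normoxic replicates. The groups overlapped, since HIF2α-KO replicate 3 lay below 2 of the normoxic libraries. The means were 1550 ± 404 and 1188 ± 151 CPM (SD, n = 3 each), a log2 fold change of 0.38 (SE 0.30, 95% interval -0.27 to 1.04, adjusted p = 0.583, edgeR). In a two-sided exact permutation test of the difference of 362 CPM, p = 0.3, where 3 libraries against 3 cannot give a p below 0.1. Without HIF2α-KO replicate 2 the log2 fold change was 0.15.

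The passenger arm, miR-210-5p, was less abundant. Its CPM was 43.5, 50.1 and 56.2 in HIF2α-KO cells and 38.5, 46.7 and 57.0 in normoxic control cells. These ranges overlapped almost entirely, and the log2 fold change was 0.08 (SE 0.29, 95% interval -0.54 to 0.69, adjusted p = 0.928, edgeR; exact permutation p = 0.8).

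The single fit of all 5 groups splits the comparison into a step of oxygen in control cells and a step of genotype in 1% O2, which add up to it and share libraries with it. For miR-210-3p the control cells in 1% O2 had 1153, 1039 and 935 CPM. These values overlapped those of the normoxic libraries. The oxygen step was -0.19 (SE 0.30, adjusted p = 0.841) and the genotype step 0.57 (SE 0.30, adjusted p = 0.400) in edgeR, so neither passed. For miR-210-5p the steps were 0.04 and 0.03. Over all 562 miRNAs, the oxygen step had 0 adjusted calls with 35 miRNAs (6.23%) at an unadjusted p under 0.05, and the genotype step had 0 adjusted calls with 86 (15.3%). Without control hypoxia replicate 1 the oxygen step had 72 at an unadjusted p under 0.05, and without control hypoxia replicate 3 it had 22. The genotype step gained 4 higher and 6 lower adjusted calls without HIF2α-KO replicate 1 and 1 higher call without control hypoxia replicate 1.

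The miR-210 level of hypoxic HIF2α-KO cells stood above that of both groups without HIF1α. miR-210-3p measured 250, 240 and 436 CPM in HIF1α-KO replicates 1 to 3, and 181, 146 and 348 CPM in HIF1α/HIF2α-KO replicates 1 to 3. Every HIF2α-KO library exceeded every library of these groups. HIF2α-KO cells were higher than HIF1α-KO cells by a log2 fold change of 2.33 (SE 0.32, adjusted p = 0.00240) and higher than HIF1α/HIF2α-KO cells by 2.79 (SE 0.32, adjusted p = 0.000381) in edgeR. miR-210-5p differed likewise, by 2.00 (adjusted p = 0.00323) and 1.78 (adjusted p = 0.0101). When only the libraries of HIF2α-KO and HIF1α-KO cells entered the edgeR fit, both arms missed the threshold against HIF1α-KO cells (adjusted p = 0.0843), with log2 fold changes of 2.26 and 1.94. Against HIF1α/HIF2α-KO cells both arms passed under every alternative run. Because all knockout groups are set against the same normoxic libraries, these contrasts are also the tests of whether the distance from normoxia differed between knockouts.

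**Figure D2:**
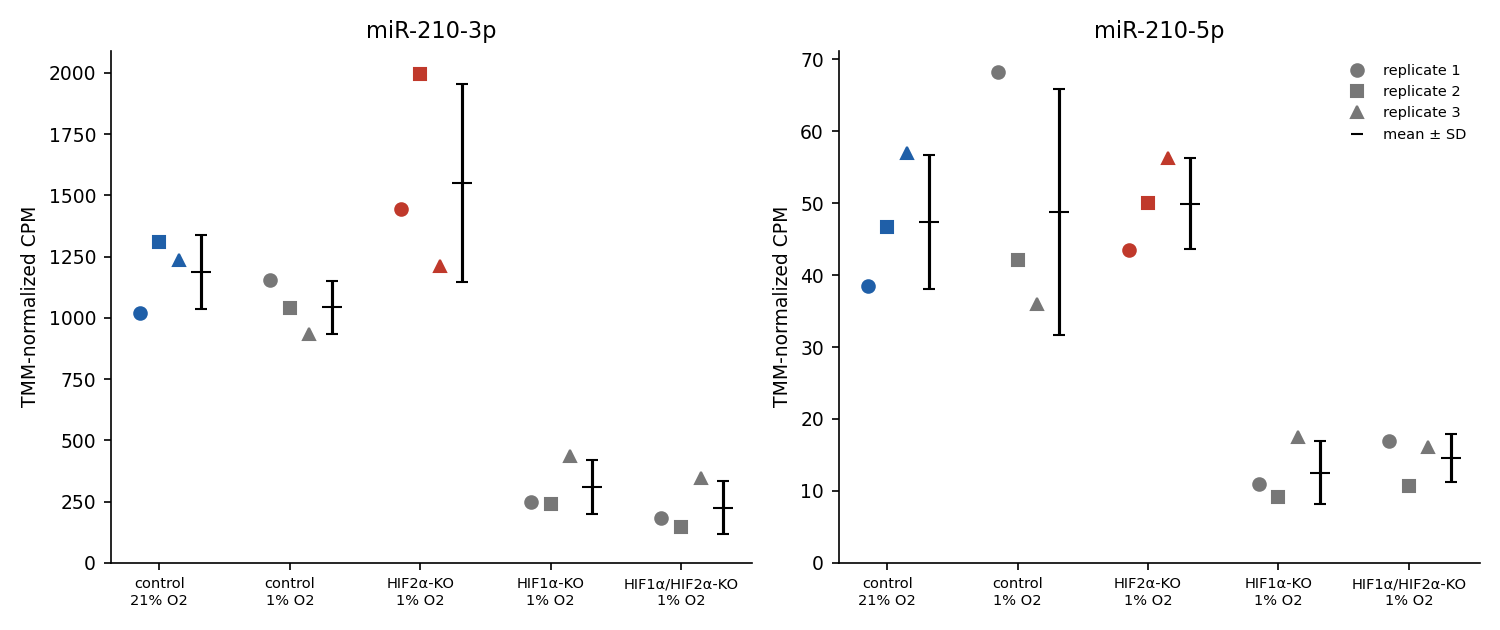
TMM-normalized CPM of miR-210-3p (left) and miR-210-5p (right) in each library of the 5 groups, with the marker shape giving the replicate and the bar the mean ± SD of 3 libraries. The 3 HIF2α-KO libraries (red, 1210 to 1996 CPM of miR-210-3p) overlap the normoxic control libraries (blue, 1018 to 1308 CPM), and the libraries of both groups without HIF1α lie at 436 CPM or less.

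The promoter window of MIR210HG from RefSeq (GRCh38.p14, chr11:568408-568707, minus strand, 300 bases around the gene start) is printed because HIF binds DNA at a short core, RCGTG. The letters ACGTG and GCGTG were searched on both strands, and matches are in capitals.
MIR210HG: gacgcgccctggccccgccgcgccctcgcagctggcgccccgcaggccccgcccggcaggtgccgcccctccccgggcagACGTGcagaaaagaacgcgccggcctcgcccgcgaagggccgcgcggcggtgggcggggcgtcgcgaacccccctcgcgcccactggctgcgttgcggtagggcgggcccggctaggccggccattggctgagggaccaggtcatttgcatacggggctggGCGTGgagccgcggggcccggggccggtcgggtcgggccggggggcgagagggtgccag
The window held 1 ACGTG and 1 GCGTG, which do not overlap. Of the 35116 promoter windows of the same length, 48.4% held at least 1 of these letter runs, so a match is a description of the window and not a binding site.

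Few other miRNAs separated HIF2α-KO cells from the other knockouts. Against HIF1α-KO cells, 5 of 562 miRNAs were higher (0.89%) and 1 was lower (0.178%) in HIF2α-KO cells in edgeR, both arms of miR-210 included. This split turned to 2 higher and 10 lower with total counts, and 0 passed in the fit of only the libraries compared, where 64 had an unadjusted p under 0.05. miR-671-5p was higher by a log2 fold change of 1.17, miR-584-5p by 0.96 and miR-503-5p, a member of the extended miR-16 family, by 0.76, whereas miR-378i was lower, with a log2 fold change of -1.66 and 4 to 7 counts in each HIF2α-KO library. None of them passed against normoxia, where their log2 fold changes were 0.47, 0.27, 0.04 and -0.60. Against HIF1α/HIF2α-KO cells, 7 were higher (1.25%) and 3 were lower (0.534%), which turned to 4 higher and 11 lower with total counts and shrank to 2 higher and 0 lower with only the libraries compared. Beside both arms of miR-210, miR-10395-5p was higher by 1.90 (SE 0.36), miR-2277-5p by 1.51, miR-449c-5p by 1.02, miR-767-5p by 0.85 and miR-125b-5p by 0.45. With only the libraries compared, miR-10395-5p (adjusted p = 0.0563) and miR-767-5p (adjusted p = 0.255) missed the threshold in edgeR. miR-30c-2-3p, an arm reported to target HIF2α, had 30.1, 29.8 and 32.7 CPM in HIF2α-KO cells, 30.4, 27.5 and 28.3 CPM in normoxic cells and 50.6, 61.1 and 49.2 CPM in HIF1α/HIF2α-KO cells. The log2 fold change against HIF1α/HIF2α-KO cells was -0.80 (SE 0.16, adjusted p = 0.0161, edgeR), and its value against normoxia was 0.10. miR-582-3p and miR-605-5p were also lower, with -1.27 and -1.32.

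The miRNAs with the smallest p on the higher side were led by members of the miR-17 family, which are transcribed from MYC-driven clusters and restrain cell cycle inhibitors. miR-20a-5p measured 283, 549 and 398 CPM in HIF2α-KO replicates 1 to 3 and 246, 194 and 229 CPM in the normoxic replicates. The groups did not overlap, but HIF2α-KO replicate 1 lay close to the normoxic range. The log2 fold change was 0.88 (SE 0.21, unadjusted p = 0.000844, adjusted p = 0.214, edgeR), and 0.60 without HIF2α-KO replicate 2. Without HIF2α-KO replicate 1 it was 1.07, and the adjusted p was then 0.0140. miR-20b-5p was rare, at 2.35, 3.81 and 2.85 CPM against 1.63, 1.31 and 1.48 CPM, or 30 to 40 counts against 17 to 23. Its log2 fold change was 1.02 (SE 0.26, adjusted p = 0.214, edgeR). Its groups did not overlap either. For miR-20a-5p the oxygen step was 0.21 and the genotype step 0.67, and for miR-20b-5p they were 0.09 and 0.93. None of these steps passed.

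**Figure D3:**
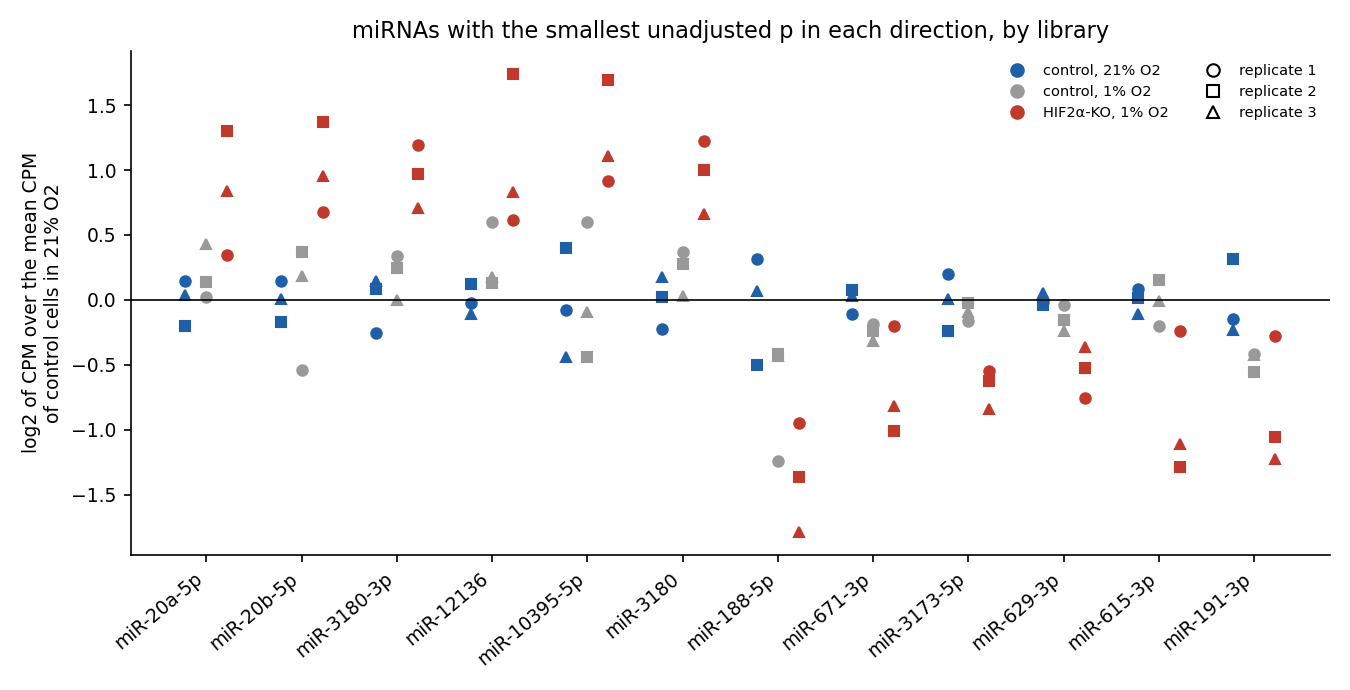
For the 6 miRNAs with the smallest p on the higher side and the 6 on the lower side, each point is a library, drawn as log2 of its CPM over the mean CPM of the 3 normoxic control libraries (y axis), with color giving the group and shape the replicate. All 12, picked by p in this same contrast, separate the red HIF2α-KO libraries from the blue normoxic ones, as do 104 of all 562 miRNAs (18.5%). In miR-20a-5p, miR-671-3p and miR-615-3p replicate 1 (circle) is the red point nearest to the blue ones.

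The other miRNAs with the smallest p on the higher side were of low abundance. miR-3180-3p had 3.99, 3.43 and 2.85 CPM in HIF2α-KO cells and 1.46, 1.85 and 1.93 CPM in normoxic cells, a log2 fold change of 0.96 (SE 0.26). miR-3180, whose sequence lies within that of miR-3180-3p, gave 0.97 (SE 0.28), and the reads of the pair cannot be told apart with certainty, so they count as 1 observation. The hairpins of miR-3180-3p lie on chromosome 16, where several near-identical copies exist. miR-12136 had 5.32, 11.6 and 6.17 CPM against 3.41, 3.78 and 3.22 CPM. Replicate 2 was the high one, and the log2 fold change was 1.15 (SE 0.31) with all libraries and 0.71 without it. miR-10395-5p had 9.39, 16.1 and 10.7 CPM against 4.71, 6.56 and 3.67 CPM, a log2 fold change of 1.28 (SE 0.35), and 1.00 without replicate 2. Its groups did not overlap. All 4 missed the threshold, with an adjusted p of 0.214 in edgeR.

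The miRNAs with the smallest p on the lower side are described with the genes that hold their hairpins. This is not particular to them, since the hairpins of miR-17-5p, miR-20a-5p and miR-106b-5p, on the higher side, also lie in genes. miR-188-5p, from an intron of CLCN5 on chromosome X, had the lowest counts, with 13, 8 and 6 counts in HIF2α-KO cells and 30, 18 and 32 in normoxic cells. That is 1.02, 0.761 and 0.570 CPM against 2.44, 1.39 and 2.06 CPM, a log2 fold change of -1.30 (SE 0.33, adjusted p = 0.214, edgeR). Control cells in 1% O2 overlapped both groups, with an oxygen step of -0.61 and a genotype step of -0.69. miR-671-3p, whose hairpin overlaps an exon of CHPF2, had 269, 154 and 176 CPM against 287, 325 and 315 CPM. HIF2α-KO replicate 1 lay just under the normoxic range and the others far below it. Its log2 fold change was -0.63 (SE 0.17), and -0.93 without HIF2α-KO replicate 1, when the adjusted p was 0.00695 in edgeR. Without HIF2α-KO replicate 2 it was -0.49 and did not pass.

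miR-615-3p, encoded within the HOXC cluster of developmental transcription factors, had 68.1, 32.9 and 37.3 CPM in HIF2α-KO cells and 85.5, 81.1 and 74.8 CPM in normoxic cells. The log2 fold change was -0.80 (SE 0.26, adjusted p = 0.242, edgeR), with an oxygen step of -0.01 and a genotype step of -0.79, neither of which passed. Without HIF2α-KO replicate 1 it was -1.22, with an adjusted p of 0.0140 in edgeR, and without HIF2α-KO replicate 2 it was -0.62 and did not pass. In HIF1α/HIF2α-KO cells the values were 37.0, 22.0 and 32.8 CPM. These overlap those of HIF2α-KO cells. miR-3173-5p, from an intron of DICER1, the enzyme that cuts miRNA precursors, had 4.31, 4.09 and 3.51 CPM against 7.23, 5.32 and 6.32 CPM (log2 fold change -0.66, SE 0.20). miR-629-3p, from an intron of TLE3, had 7.44, 8.75 and 9.78 CPM against 12.4, 12.3 and 13.0 CPM (-0.54, SE 0.17). miR-191-3p, from an intron of DALRD3, had 5.32 to 10.3 CPM against 10.6 to 15.5 CPM (-0.78, SE 0.25). In all 3, picked by p in this same contrast, the groups were separate, as in 51 of all 562 miRNAs (9.07%) on the lower side. The adjusted p of all 3 was 0.242 in edgeR. Without HIF2α-KO replicate 1, miR-191-3p gave -1.15 (adjusted p = 0.0290, edgeR), and without HIF2α-KO replicate 2 it gave -0.69 and did not pass.

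By seed, the miR-17 family held the most miRNAs with a low p. All 6 tested members with the seed AAAGUGC had a positive log2 fold change, with a median of 0.61, and 4 of them had an unadjusted p under 0.05, against 279 of 562 (49.6%) positive and 8.36% over all miRNAs. Besides miR-20a-5p and miR-20b-5p these were miR-17-5p and miR-106b-5p. miR-17-5p had 302, 486 and 273 CPM in HIF2α-KO cells and 244, 215 and 231 CPM in normoxic cells (log2 fold change 0.62, SE 0.18, adjusted p = 0.214, edgeR). miR-106b-5p had 100, 179 and 126 CPM against 94.3, 86.4 and 86.0 CPM (0.61, SE 0.19, adjusted p = 0.242, edgeR). HIF2α-KO replicate 2 was the highest library for all 6 members. miR-93-5p, the most abundant member, had 1044, 1384 and 822 CPM against 947, 903 and 871 CPM, so that its groups overlapped. The sequences of miR-17-5p and miR-20a-5p differ at 2 bases and those of miR-17-5p and miR-106a-5p at 1 base, so reads could be split between members and the 6 are not independent observations.

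The miR-15/16 family, known for restraining BCL2 and G1 cyclins, gave smaller differences. Of its 6 tested members with the seed AGCAGCA, 5 were positive with a family median of 0.37, and 2 were higher at an unadjusted p under 0.05, against 49.6% positive and 8.36% higher over all miRNAs. miR-16-5p had 1198, 1961 and 1628 CPM in HIF2α-KO cells and 1158, 1047 and 1163 CPM in normoxic cells. Its log2 fold change was 0.51 (SE 0.16, adjusted p = 0.242, edgeR), and 0.32 without HIF2α-KO replicate 2. Without HIF2α-KO replicate 1 it was 0.66, with an adjusted p of 0.0340. miR-424-5p, reported to stabilize HIFα by targeting CUL2, had 17.2, 26.2 and 23.6 CPM against 17.6, 12.9 and 12.9 CPM (0.63, SE 0.24), with overlapping groups. miR-15b-5p differed little, with 180, 173 and 176 CPM against 177, 186 and 178 CPM.

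**Figure D4:**
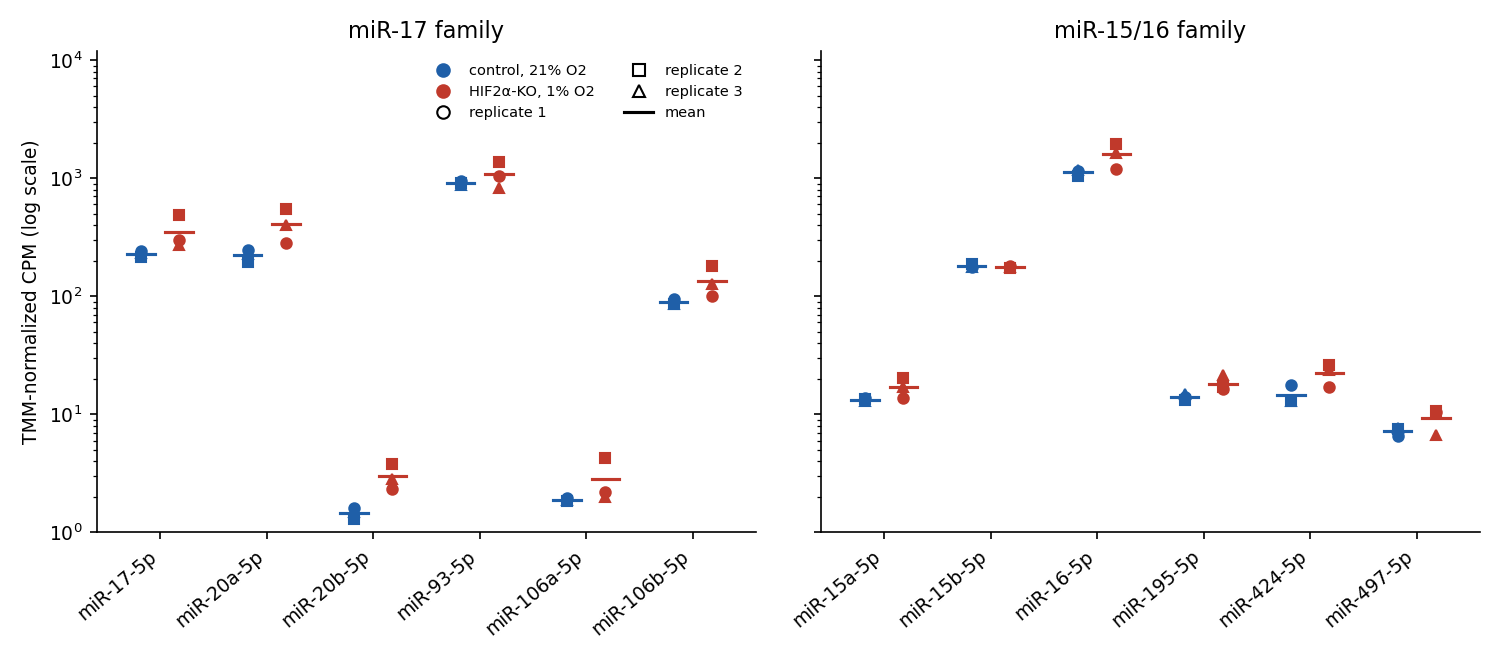
TMM-normalized CPM (y axis, log scale) of the 6 members of the miR-17 family (left) and of the miR-15/16 family (right) in normoxic control (blue) and hypoxic HIF2α-KO libraries (red), with the shape giving the replicate and the line the mean of 3 libraries. Replicate 2 (square) is the highest red point for all 6 members of the miR-17 family, and the points of miR-15b-5p lie together.

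The MIR17HG cluster and its paralogs also hold members with other seeds. Of 23 members listed, 18 were tested. Of these, 5 were higher and 0 lower at an unadjusted p under 0.05 (8.36% and 6.76% over all miRNAs), with a median log2 fold change of 0.23. miR-92a-3p, the most abundant, had 13118, 12113 and 10356 CPM in HIF2α-KO cells and 10083, 10811 and 10022 CPM in normoxic cells, a log2 fold change of 0.20 (SE 0.13). miR-25-3p had 3582, 3794 and 2979 CPM against 3655, 4072 and 3361 CPM (-0.10). miR-19a-3p gave -0.00 and miR-19b-3p 0.74, although they differ at 1 base. The value of miR-19b-3p came largely from HIF2α-KO replicate 2, with 131 CPM beside 49.3 and 45.8 CPM in the others.

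Of 22 miRNAs reported to respond to hypoxia, 21 were tested, and miR-373-3p had no counts in the 6 libraries. None passed the adjusted threshold, 5 were higher and 0 lower at an unadjusted p under 0.05, and 16 were positive, with a median log2 fold change of 0.24. Over all miRNAs 8.36% were higher, 6.76% were lower and 49.6% were positive. miR-21-5p, an inhibitor of PDCD4 translation and the most abundant miRNA, had 204546, 253598 and 257721 CPM in HIF2α-KO cells and 194917, 166277 and 209527 CPM in normoxic cells. The log2 fold change was 0.33 (SE 0.13, adjusted p = 0.284, edgeR), with HIF2α-KO replicate 1 inside the normoxic range. The other 4 were miR-23a-3p (0.24), miR-30b-5p (0.63), miR-107 (0.36) and miR-424-5p (0.63). miR-26a-5p had 23054, 19891 and 30393 CPM against 26867, 24813 and 25480 CPM (-0.07). In control cells, the median oxygen step of the list was 0.04, and its median genotype step was 0.16.

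Of 11 miRNAs reported to regulate the HIF pathway 10 were tested, including those that target HIF1A or EPAS1 mRNA. At an unadjusted p under 0.05, 4 were higher (8.36% over all miRNAs) and 0 lower (6.76%), all of them members described above (miR-17-5p, miR-20a-5p, miR-20b-5p and miR-424-5p). The list median was 0.35. miR-155-5p, an inflammation-linked miRNA that targets HIF1A, had 410, 430 and 452 CPM in HIF2α-KO cells and 541, 443 and 536 CPM in normoxic cells (log2 fold change -0.23, SE 0.27, adjusted p = 0.745, edgeR). miR-30a-3p, which targets EPAS1, had 826, 750 and 842 CPM against 818, 816 and 851 CPM (-0.04, 95% interval -0.33 to 0.25). The groups overlapped for miR-155-5p too.

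Lists tied to growth control gave the following counts. Among 19 tested p53-linked and cell cycle miRNAs, 5 were higher (8.36% over all miRNAs) and 0 lower (6.76%) at an unadjusted p under 0.05, with a median log2 fold change of 0.07. miR-34a-5p, a direct p53 target, had 290, 486 and 356 CPM in HIF2α-KO cells and 262, 269 and 267 CPM in normoxic cells (0.50, SE 0.23, adjusted p = 0.317, edgeR). It was 0.27 without HIF2α-KO replicate 2. miR-34c-5p, also regulated by p53, had 10.3, 13.8 and 12.4 CPM against 5.53, 8.17 and 8.51 CPM (0.72, SE 0.21). Its groups did not overlap. The 9 let-7 guide strands, which repress RAS and HMGA2, had a median of -0.03, with 1 lower and 0 higher. let-7i-5p was the lower one, at 36981, 32302 and 35225 CPM against 41271, 42643 and 45263 CPM (-0.31, SE 0.11, adjusted p = 0.271, edgeR). Its oxygen step in control cells was -0.28 and its genotype step -0.03. let-7a-5p, the most abundant member, gave -0.01 (95% interval -0.38 to 0.36).

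Among 8 tested glioma-linked oncomiRs, 2 were higher (miR-21-5p and miR-182-5p), 0 were lower and the median was 0.09, beside 8.36% higher and 6.76% lower over all miRNAs at an unadjusted p under 0.05. miR-182-5p had 254, 227 and 237 CPM in HIF2α-KO cells and 164, 197 and 191 CPM in normoxic cells, with a log2 fold change of 0.38 (SE 0.17). miR-221-3p, which represses the cell cycle inhibitor p27, gave 0.17 (SE 0.12). Of the 8 tested neural and glial miRNAs, 1 was higher and 1 lower, with a median of 0.12. The lower one was miR-128-3p, a brain-enriched miRNA that targets BMI1, with 1635, 951 and 1175 CPM against 2157, 1920 and 1663 CPM (-0.61, SE 0.21). The higher one was miR-138-5p, with 860, 999 and 923 CPM against 674, 726 and 782 CPM (0.35, SE 0.16). miR-7-5p, which restrains EGFR, gave -0.00 and miR-9-5p 0.44, but their normoxic libraries alone spanned 5051 to 9680 and 3892 to 5312 CPM.

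**Figure D5:**
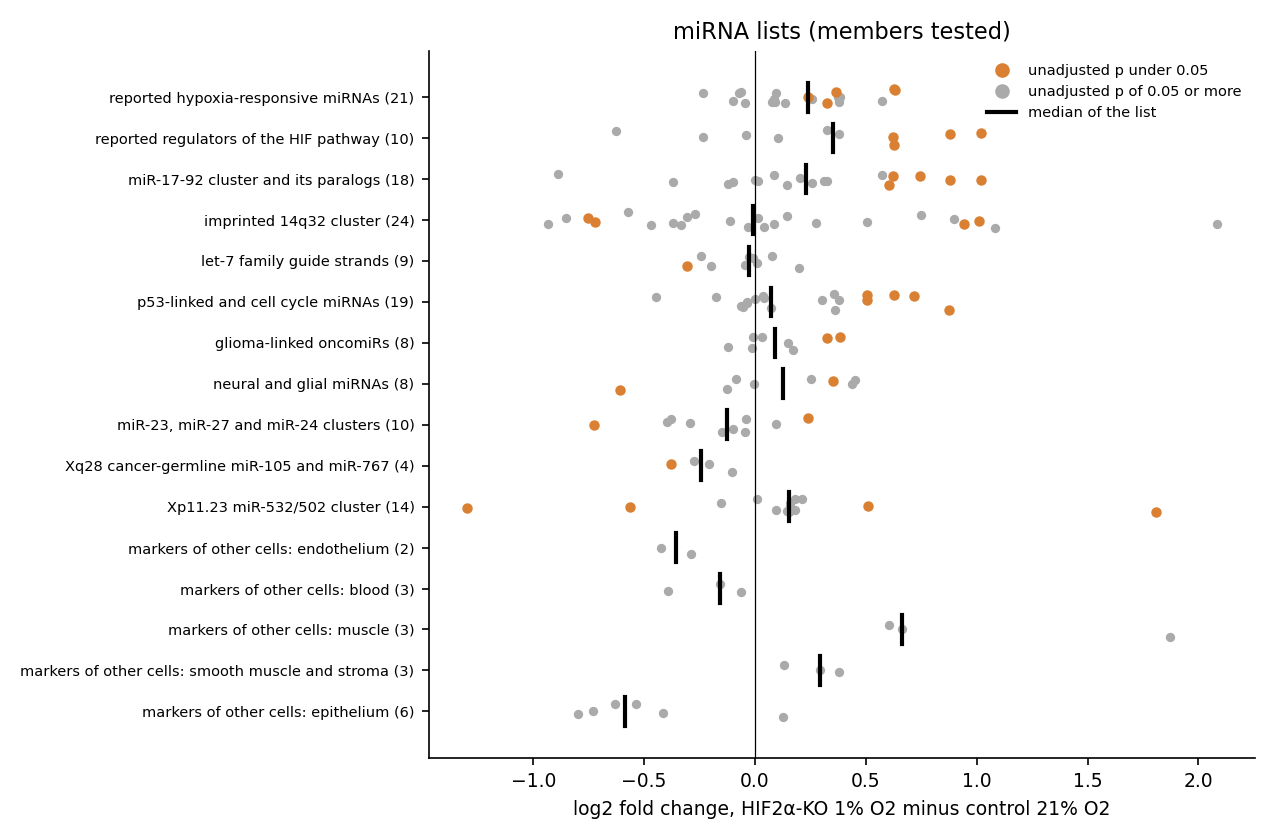
Log2 fold changes of the tested members of each miRNA list (x axis, hypoxic HIF2α-KO minus normoxic control cells), with the median as a black line, members with an unadjusted p under 0.05 in orange and the number tested in brackets. The medians of the lists of hypoxia-responsive miRNAs (0.24), HIF pathway regulators (0.35) and the MIR17HG cluster with its paralogs (0.23) lie to the right of 0. These lists share members, such as miR-20a-5p and miR-424-5p. The muscle (0.66) and stromal (0.30) marker lists also lie to the right. The endothelial (-0.36), blood (-0.16) and epithelial (-0.58) lists lie to the left, and the let-7 and 14q32 lists lie at -0.03 and -0.01.

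In the imprinted 14q32 cluster, a maternally expressed set of miRNAs, 24 of 74 listed members were tested. Their median log2 fold change was -0.01, with 12 positive and 12 negative, 2 higher and 2 lower at an unadjusted p under 0.05, shares close to those over all miRNAs (8.36% and 6.76%). The median oxygen step of the list was 0.49 in control cells, and its median genotype step was -0.55. Both steps use the same control hypoxia libraries, with opposite sign, so they are not separate observations. Neither median was tested. miR-381-3p had 25.4, 21.0 and 27.0 CPM in HIF2α-KO cells, 27.1, 47.4 and 49.2 CPM in normoxic control cells and 45.9, 67.9 and 40.9 CPM in hypoxic control cells. Its log2 fold change against normoxia was -0.75 (SE 0.26, adjusted p = 0.266), with an oxygen step of 0.32 and a genotype step of -1.08 (adjusted p = 0.124, edgeR). HIF1α/HIF2α-KO cells had 19.1, 19.9 and 21.6 CPM of miR-381-3p, whereas HIF1α-KO cells had 44.4, 61.7 and 37.3 CPM. miR-654-3p gave -0.57, 0.20 and -0.77 in the same order, and its normoxic libraries spanned 8.61 to 20.7 CPM.

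In the Xp11.23 cluster, a row of hairpins in introns of CLCN5, 14 of 16 members were tested, with a median of 0.15. At an unadjusted p under 0.05, 2 were higher (miR-362-3p and miR-660-5p) and 2 lower (miR-188-5p and miR-500b-3p), beside 8.36% and 6.76% over all miRNAs. miR-362-3p had 8, 16 and 16 counts in HIF2α-KO cells and 2, 3 and 9 in normoxic cells, a log2 fold change of 1.81 (SE 0.52, adjusted p = 0.214, edgeR) near the detection floor. The abundant members differed little, with 0.01 for miR-532-5p and 0.16 for miR-500a-3p. In the Xq28 cluster of the cancer-germline miRNAs miR-105 and miR-767, from introns of GABRA3, all 4 members were negative and 1 was lower. miR-105-5p had 66.5, 51.8 and 48.6 CPM against 70.7, 73.6 and 73.0 CPM (-0.38, SE 0.16, adjusted p = 0.317, edgeR), and miR-767-5p gave -0.21 (SE 0.19). In the miR-23/27/24 clusters 1 member was higher and 1 lower, with a median of -0.12. miR-27a-3p and miR-27b-3p, which differ at 1 base, both gave -0.04 and had nearly the same counts, as far as reads can be told apart between them.

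The 5 most abundant miRNAs took 65.4% to 68.8% of all counts in the 6 libraries. Besides miR-21-5p and the let-7 members, they were miR-100-5p and miR-99a-5p, which differ at 1 base. miR-100-5p had 175685, 194265 and 174902 CPM in HIF2α-KO cells and 166788, 172801 and 171705 CPM in normoxic cells, with a log2 fold change of 0.09 (SE 0.13, 95% interval -0.18 to 0.37). miR-99a-5p had 172934, 190528 and 171769 CPM against 164028, 170059 and 169056 CPM and the same log2 fold change. Reads of the pair may have been counted for both, so they count as 1 observation.

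The miRNAs with the largest fold changes had few counts or followed single libraries. Of the 85 miRNAs with an unadjusted p under 0.05, 16 (2.85% of those tested) differed by 2-fold or more. miR-190a-5p had the largest log2 fold change, 3.50 (SE 1.32), from 4, 4 and 49 counts in HIF2α-KO cells and 1, 2 and 3 in normoxic cells, so that replicate 3 decided it. miR-590-3p (2.90, SE 1.33) had 3, 4 and 104 counts against 3, 3 and 13. Between the groups, 53 miRNAs (9.43%) had non-overlapping higher values in HIF2α-KO cells and 51 (9.07%) non-overlapping lower values.

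Markers of other cells were checked in the same libraries. The defining endothelial markers miR-126-3p and miR-126-5p, both tested, gave log2 fold changes of -0.43 (SE 0.96) and -0.29 (SE 0.90), and miR-126-5p had no counts in HIF2α-KO replicate 2. Of 8 blood markers 3 were tested, with sums of 4.66 to 15.9 CPM in HIF2α-KO and 11.5 to 17.9 CPM in normoxic libraries, and miR-486-5p had no counts. miR-451a, a red cell miRNA, had 13.1, 3.43 and 9.31 CPM against 8.61, 10.5 and 14.8 CPM. Of 4 muscle markers 3 were tested, with sums of 3.21 to 20.1 CPM and 1.95 to 8.44 CPM. Among them miR-1-3p had 1.10, 15.4 and 14.2 CPM against 0.975, 1.85 and 5.41 CPM, a log2 fold change of 1.87 (SE 0.94, adjusted p = 0.376, edgeR). The 3 stromal markers summed to 142 to 364 CPM and 183 to 312 CPM, and the 6 epithelial markers to 54.1 to 104 CPM and 73.0 to 102 CPM. None of these markers had an unadjusted p under 0.05. In the endothelial, blood, stromal and epithelial lists HIF2α-KO replicate 2 had the lowest sum of its group. In the muscle list it had the highest, 20.1 CPM. The part of such RNA in the values above was not tested.

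The higher and lower miRNAs differed in base composition, but the relation to GC content also varied between libraries of a group. The GC content of the mature sequence had a median of 43.5% among 39 of the 47 higher miRNAs with an unadjusted p under 0.05, 54.5% among 36 of the 38 lower ones and 47.8% among 513 of all 562, the rest being without a RefSeq sequence. Across miRNAs, GC content correlated (Spearman) with the log2 level over the normoxic mean by 0.14, -0.02 and -0.45 in HIF2α-KO replicates 1 to 3. In normoxic replicates 1 to 3 the values were -0.17, 0.36 and -0.20. With a correction for GC content fitted in each library, 0 miRNAs passed and 41 were higher and 32 lower at an unadjusted p under 0.05 in edgeR. Under this correction miR-20a-5p gave 0.83, miR-671-3p -0.52 and miR-210-3p 0.51.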

How the data were processed

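Small RNA libraries of 15 U87-MG samples were sequenced by a service company. The authors deposited whole-number read counts per mature miRNA, 1 file per library, without normalization. HISAT2, StringTie and DESeq2 are named in the submitters' processing notes without a role or version. The genome build, miRNA annotation and counting tool are not given in the sources used here. The study's methods name quantile normalization with limma, which the deposited counts do not include.

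Samples were grouped by the labels. The members and miRNA lists were chosen with earlier results of these data known. Counts of all 15 libraries (10360337 to 22496373 counts) were fitted once with edgeR 4.0.16 (R 4.3.3), using filterByExpr, TMM factors, 5 group means and the quasi-likelihood test, with p-values adjusted over the 562 miRNAs tested. miRNAs were named by a fixed rule: both arms of miR-210, the 6 with the smallest p in each direction, the 2 most abundant tested members of each list and the 5 most abundant overall. Members of a seed family, those with an unadjusted p under 0.05 in a list, those called against other knockouts and miRNAs with the largest fold changes were chosen after their values were seen. Alternatives were other scalings, filters and tools (limma 3.58.1 on log2(CPM + 1), DESeq2 1.42.0), a replicate block, a GC correction and leaving out libraries. Hairpin positions and host genes come from GENCODE 29 (GRCh38). Whether HIF2α-KO replicate 2 or replicate 1 differs for a technical reason was not tested. Replicates of the 2 groups compared differed by more than sampling noise, and none was counted as a duplicate.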

Additional observations from a re-analysis of the deposited data

Results flagged for a closer look

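The distance of HIF2α-KO cells from the normoxic libraries differed from that of other knockouts for 4 of the miRNAs named by the fixed rule. It was tested as contrasts of the single edgeR fit. The other miRNAs called in these contrasts, such as miR-671-5p and miR-2277-5p, are given above and were not named by that rule. Against HIF1α-KO cells, the difference was 2.33 on the log2 scale for miR-210-3p and 2.00 for miR-210-5p. Against HIF1α/HIF2α-KO cells, it was 2.79 for miR-210-3p, 1.78 for miR-210-5p, 1.90 for miR-10395-5p and 0.85 for miR-767-5p. miR-767-5p measured 64.9, 60.3 and 46.8 CPM in HIF2α-KO cells and 34.1, 37.8 and 23.8 CPM in HIF1α/HIF2α-KO cells, which do not overlap. miR-10395-5p measured 9.39, 16.1 and 10.7 CPM against 3.15, 4.32 and 2.21 CPM, which do not overlap either. Not all of these calls held. Both arms of miR-210 missed the threshold against HIF1α-KO cells in a fit restricted to those 6 libraries (adjusted p = 0.0843, edgeR). In the like fit against HIF1α/HIF2α-KO cells miR-10395-5p (adjusted p = 0.0563) and miR-767-5p (adjusted p = 0.255) also missed it. Without HIF1α/HIF2α-KO replicate 1 their adjusted p was 0.0866 and 0.135 in edgeR.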

How the results depend on the processing

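The comparison of hypoxic HIF2α-KO with normoxic control cells had 0 miRNAs higher and 0 lower at an adjusted p under 0.05 in edgeR, with 85 at an unadjusted p under 0.05. Without a filter on low counts it gave 12 higher and 1 lower, of which only miR-6766-3p had failed the main filter. Leaving out 1 library gave 0 to 9 higher and 0 to 9 lower, and the calls came from the fit without HIF2α-KO replicate 1, where 113 miRNAs had an unadjusted p under 0.05. Those called higher then were miR-12136, miR-16-5p, miR-20a-5p, miR-20b-5p, miR-30b-5p, miR-101-3p, miR-106b-5p, miR-362-3p and miR-652-5p. Those called lower were miR-22-3p, miR-23b-5p, miR-128-3p, miR-188-5p, miR-191-3p, miR-615-3p, miR-671-3p, miR-4755-3p and miR-4755-5p, of which the last 2 have identical counts and are 1 observation. The cause was not tested. All other settings gave 0 and 0, including DESeq2 (69 at an unadjusted p under 0.05), limma (72) and, chosen after seeing the data, the libraries with more miR-126 alone (48). Where only the libraries compared entered the fit, 54 of 498 miRNAs had an unadjusted p under 0.05. Fits without HIF2α-KO replicate 2 gave 51 and without normoxic replicates 1, 2 and 3 gave 56, 45 and 63. Against HIF1α-KO cells (5 higher and 1 lower), leaving out 1 library gave 2 to 8 higher and 0 to 10 lower, with 8 and 10 without HIF1α-KO replicate 3 and 2 and 0 without HIF1α-KO replicate 2. Against HIF1α/HIF2α-KO cells (7 and 3), it gave 2 to 9 higher and 0 to 8 lower, with 2 and 0 without HIF1α/HIF2α-KO replicate 1 and 9 and 8 without its replicate 2. Without a filter the oxygen step had 13 higher and 2 lower and the genotype step 4 and 7. In the comparison with normoxia, total counts moved the share of higher miRNAs among those at an unadjusted p under 0.05 from 55.3% to 31.3%. The median log2 fold change of all miRNAs in that comparison moved to -0.09. In their deviations from the group means, same-numbered libraries of the 2 groups correlated by -0.14, -0.04 and 0.38. Differently numbered ones correlated by -0.27 to 0.32. With 3 libraries a group, these values cannot decide whether the replicate numbers pair the libraries. The fit with the replicate block gave 0 higher and 0 lower, with 71 at an unadjusted p under 0.05, and 65 with the block and the GC correction. Of 4231 values of named miRNAs under other settings, over all contrasts, 0 reversed a call, 16 lost one and 42 gained one. A reversal was possible only where the main fit had a call, which the comparison with normoxia and its 2 steps lacked. In 297 values the sign differed with no call in either fit. Depth limits miRNAs near 0.260 CPM before TMM normalization, and 3 libraries a group limit the exact permutation test to p = 0.1.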
